A study of Ovis aries with 16 samples.

Results

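The genes followed here encode the albumin family and other major carrier proteins of blood plasma: ALB, AFM, AFP, GC, TTR, TF, AHSG and AMBP. All 8 listed symbols were found among the 28524 genes of the deposited table. They were chosen by name with measured values in view, because AFM had been seen to differ between BPA and control sheep in opposite directions in liver and in muscle. The AFM values in those contrasts are therefore given as a description, with no test, and they support nothing further. The other members were tested in fits over all genes.

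Hepatocytes make most plasma proteins and secrete them into blood. ALB (serum albumin), AFP (alpha-fetoprotein), AFM (afamin) and GC (vitamin D binding protein) belong to a single gene family that arose by duplication, and AFP is the fetal counterpart of albumin that is largely silenced after birth. The remaining members are unrelated carriers: TTR (transthyretin) transports thyroid hormone and the retinol-carrying protein RBP4, TF (transferrin) carries iron, AHSG (fetuin-A) keeps calcium phosphate in solution, and AMBP encodes a precursor that is cut into alpha-1-microglobulin and bikunin.

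Liver (left lobe, at its tip) and thigh muscle (vastus lateralis) came from 8 female sheep, 4 control and 4 BPA, with both tissues from each animal. Their Suffolk mothers received daily subcutaneous injections from day 30 to day 90 of gestation, either of bisphenol A (BPA, a plasticizer with oestrogen-like activity) at 0.5 mg/kg per day in corn oil or of corn oil alone. All offspring were about 21 months old when sampled, had been fasted for 48 hours, and were late in the follicular phase of a cycle that prostaglandin had synchronized. The study asked how this prenatal exposure changed the liver and muscle transcriptomes. The controls are sheep 902, 908, 924 and 928, and the BPA sheep are 910, 918, 977 and 984. The labels do not say whether any of them share a mother or a father.

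Values are normalized read counts, meaning reads divided by a size factor for each library. Because they are not divided by transcript length, levels are compared between libraries and not between genes. In units of 1e6 reads (M), depth was 4.39 to 19.28 M in control liver, 4.66 to 17.92 M in BPA liver, 16.16 to 28.54 M in control muscle and 15.15 to 26.54 M in BPA muscle. The livers 902, 918, 977 and 984 lay under 15 M reads and the other 4 livers over it, so that 3 of the 4 BPA livers and 1 of the 4 control livers were shallow. The tissue labels held: the summed skeletal muscle marker list (16 genes) was 271.6 to 1549 in liver and 7457529 to 10404844 in muscle. The control liver 902 stood apart from the other controls. Its hepatocyte list of enzymes and receptors (16 genes) summed to 38693, against 279573 to 350349 in the other control livers, and its fibroblast and stellate cell list (12 genes) to 121341, against 8111 to 9840.

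ALB, the main carrier of fatty acids and many drugs, varied more among livers of the same group than between the groups. In control liver it measured 10447 in sheep 902, 677303 in 908, 739640 in 924 and 702068 in 928. In BPA liver it measured 548171 in 910, 197662 in 918, 112257 in 977 and 91332 in 984. The liver of 902 was the lowest of all 8 livers, and the BPA liver of 910 lay close under the 3 high controls, so that the groups overlapped. Group means were 532364 ± 348887 in controls and 237356 ± 212253 in BPA sheep (SD, n = 4 each). The log2 difference, BPA minus control on the log2(value + 1) scale, was -0.43 (SE 1.57, adjusted p = 0.894, limma over 15689 genes). Without the control 902 the estimate was -1.95, and without the BPA liver 910 it was -0.96.

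A similar order of livers recurred in GC, the binder of vitamin D metabolites. GC measured 1263 in the control liver 902 and 36023 to 40369 in the other controls. In BPA livers it measured 46049 in 910, 22611 in 918, 7373 in 977 and 8337 in 984. The highest GC value of all livers was thus in the BPA sheep 910 and the lowest in the control 902. The log2 difference was -0.05 (SE 1.16, adjusted p = 0.985, limma), and it was -1.28 without 902 and -0.56 without 910.

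TTR, the thyroid hormone carrier, measured 358 in the control liver 902, 20911 in 908, 22925 in 924 and 25115 in 928. In BPA livers it measured 21391 in 910, 1362 in 918, 2400 in 977 and 2222 in 984. The BPA livers 918, 977 and 984 lay at about the same low level, above 902 only, whereas 910 lay inside the range of the high controls. The log2 difference was -1.20 (SE 1.4, adjusted p = 0.644, limma) and reached -2.70 without 902 and -2.07 without 910. RBP4, which travels in plasma bound to transthyretin, followed the same arrangement, with 2847 in the liver of 902, 47217 to 54060 in the other controls, 50013 in 910 and 7266 to 12342 in the other BPA livers (log2 difference -0.70, SE 1.03, adjusted p = 0.719, limma).

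TF, the iron carrier, measured 6439 in the control liver 902, 105236 in 908, 136945 in 924 and 140643 in 928. The BPA livers measured 116471 in 910, 38613 in 918, 18018 in 977 and 19355 in 984. AHSG, the inhibitor of calcification, measured 1896 in 902 and 65928 to 84397 in the other controls, with 60337 in 910 and 14566 to 15663 in the other BPA livers. Both genes placed 910 among or just under the high controls and the other BPA livers well below. AMBP, the precursor of alpha-1-microglobulin and bikunin, measured 3143 in 902 and 81240 to 83841 in the other controls, with 76080 in 910 and 18486 to 26710 in the other BPA livers. The log2 differences were -0.76 for TF (SE 1.12, adjusted p = 0.718), -0.46 for AHSG (SE 1.2, adjusted p = 0.845) and -0.29 for AMBP (SE 1.11, adjusted p = 0.898), all from limma. Without 902 they were -1.84, -1.78 and -1.47, and the smallest adjusted p that any member reached in liver with a library left out was 0.131.

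**Figure D1:**
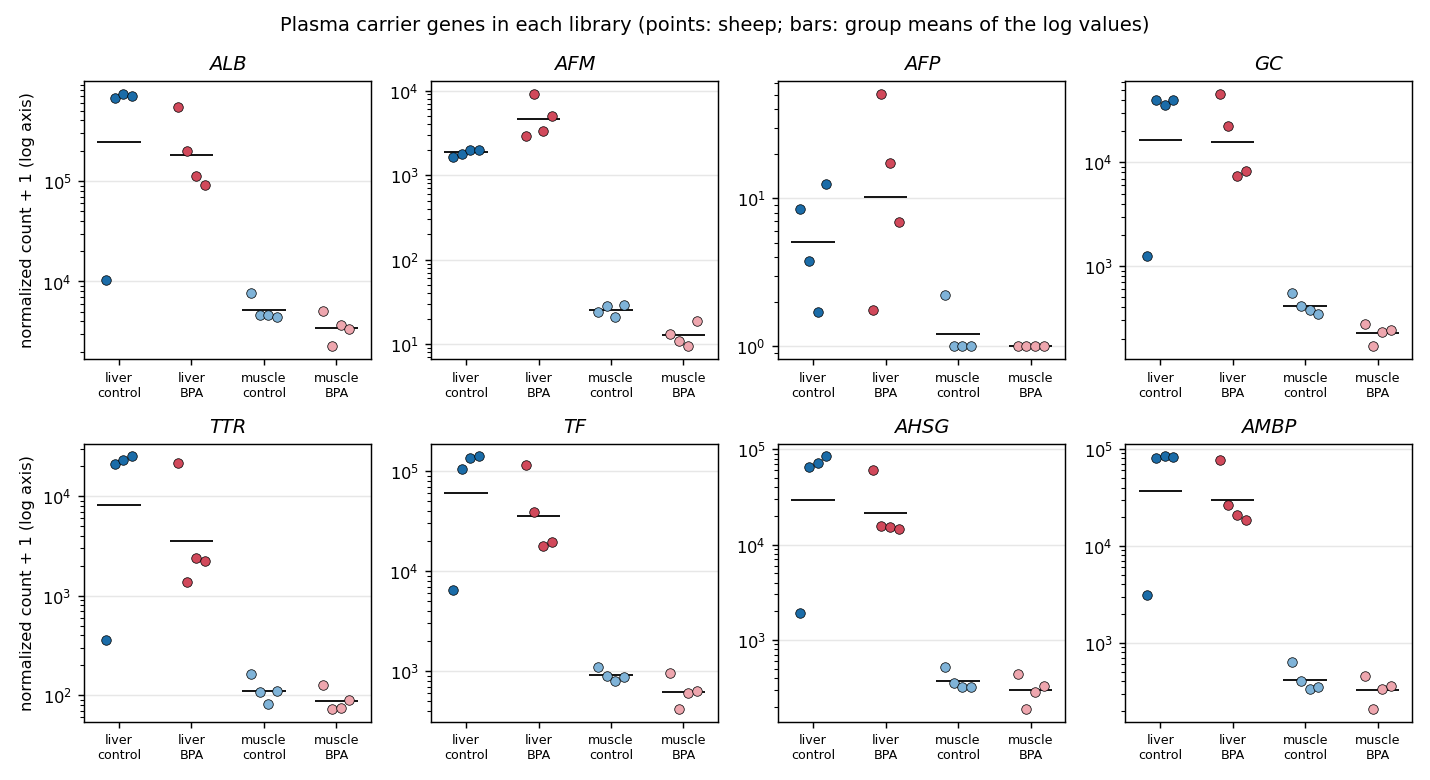
Normalized count + 1 of each carrier gene (vertical log axis, own scale per panel) in the 4 groups, with 1 point per sheep and a bar at the group mean of the log values. In control liver the point of sheep 902 lies far below the other 3 for ALB, GC, TTR, TF, AHSG and AMBP, but not for AFM (1658 against 1792 to 2007).

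AFM, the albumin-family binder of vitamin E, did not follow this order in liver. In control liver it measured 1658 in 902, 1792 in 908, 2007 in 924 and 1976 in 928. In BPA liver it measured 2874 in 910, 9188 in 918, 3357 in 977 and 5057 in 984. Every BPA liver lay above every control, which is the pattern on which the genes were chosen. The control 902, in which ALB was the lowest of all livers, had AFM close to the other controls. The BPA sheep 918 had the highest AFM of all livers. Group means were 1858 ± 163.5 and 5119 ± 2870 (SD, n = 4 each). The log2 difference was 1.31, with an SE of 0.402. Leaving out any library gave 0.98 to 1.54. Among all genes tested in liver, 569 of 15689 (3.63%) had all 4 BPA libraries above all 4 controls, and nothing is read from AFM being among them.

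AFP was close to the limit of detection in these adult livers. It was recovered as 4 reads in 902, 4 in 908, 1 in 924 and 17 in 928 among controls, and as 1 read in 910, 24 in 918, 13 in 977 and 7 in 984 among BPA sheep. In normalized counts that is 0.7109 to 11.41 in controls and 0.7642 to 49.97 in BPA sheep, and the groups overlapped. The highest value, in 918, had a 95% Poisson interval of 32.02 to 74.35 normalized counts, above the interval of every control (the control 902 reached up to 19.3). The log2 difference was 0.99 (SE 1.1, adjusted p = 0.625, limma). In muscle, AFP had 1 read in the control 902 and 0 reads in the other 7 libraries. In those 7 the 95% Poisson interval reached up to 2.831 (918) to 5.178 (977) normalized counts. These intervals and limits cover counting error only.

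Over the liver as a whole, 0 of the 7 tested members passed the threshold, an adjusted p of 0.05. Over all genes limma called 0 of 15689 (0%), with 2838 at an unadjusted p under 0.05, edgeR called 0 and DESeq2 196. None of the 7 members had an unadjusted p under 0.05. Their estimates were above 0 for AFP and below 0 for the other 6, with a median of -0.43, beside -0.01 over all genes tested. AFP entered the test only through the BPA livers, so nothing is read from its sign. Set apart by depth, the livers over 15 M reads (3 control, 1 BPA) gave BPA minus control differences of -0.36 for ALB, 0.25 for GC, -0.10 for TTR, -0.12 for TF, -0.29 for AHSG and -0.12 for AMBP. Those under 15 M reads (1 control, 3 BPA) gave differences above 0 for the same 6 genes, from 1.89 for TF to 3.60 for ALB, with sheep 902 as their only control. For AFM the same split gave 0.58 and 1.70, and for AFP -1.29 and 1.09. Depth, the state of these livers and BPA cannot be told apart with such counts, and in bulk tissue fewer cells of a type and less RNA per cell cannot be told apart either.

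Markers of other liver cells differed among the livers as well, although 0 genes of the macrophage, endothelial, fibroblast and bile duct lists passed the threshold (smallest adjusted p 0.256, limma). The macrophage list (9 genes) summed to 6514 to 9725 in control livers and to 5879 in 910 and 1235 to 2302 in the other BPA livers, without overlap between the groups. The fibroblast and stellate list was 3394 to 8003 in BPA livers, below all 4 controls (the lowest control was 8111). No share over all genes is set beside these separations, and nothing is read from them. The endothelial list (11 genes) overlapped, at 14314 to 17801 and 9275 to 18718, and so did the bile duct list (9 genes), at 2105 to 13722 and 768.3 to 2367. No gene of these lists was at 0 in any liver. The hepatocyte list summed to 303970 in 910, 100635 in 918, 124899 in 977 and 127352 in 984, highest in 910 as for ALB, but lowest in 918, which had the next highest ALB of the BPA livers. Their part in the AFM difference and in the spread of the other carriers was not tested.

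**Figure D2:**
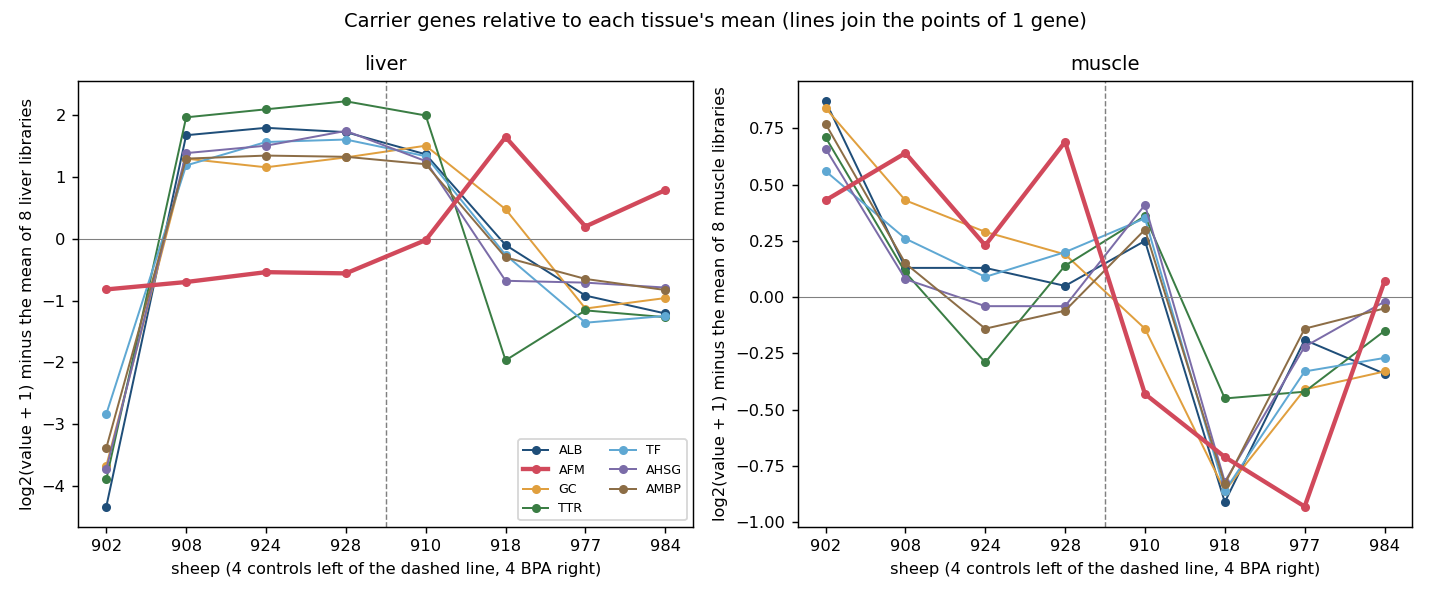
Log2(value + 1) of 7 carrier genes minus the gene's mean over the 8 libraries of the tissue (vertical axis), by sheep (horizontal axis, controls left of the dashed line), for liver and muscle; lines join the points of 1 gene. In liver AFM runs apart from the other 6, which are lowest in 902, whereas in muscle 902 is at or near the top and 918 at or near the bottom for nearly all of them.

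The share of each library taken by the carriers shows how large this spread was. The 8 genes together took 0.305% of reads in the control liver 902 (95% Wilson interval 0.2995 to 0.3098%), 7.77% in 908, 8.58% in 924 and 8.32% in 928. In BPA livers they took 6.36% in 910, 3.21% in 918, 1.98% in 977 and 1.78% in 984. In muscle they took 0.0163% (918) to 0.0546% (902). The differences among livers were far wider than the counting error of any of these shares.

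Expressed relative to ALB in the same library, AFM varied more among livers than GC, TTR, TF, AHSG and AMBP did, while AFP, on 1 to 24 reads, is left aside. Per 1000 normalized counts of ALB, AFM stood at 159 in the control liver 902 and at 2.65, 2.71 and 2.81 in 908, 924 and 928. In BPA livers it stood at 5.24 in 910, 46.5 in 918, 29.9 in 977 and 55.4 in 984. The ratio was thus high in all 4 livers under 15 M reads, control or BPA, and low in the 4 over it (2.65 to 5.24). GC stood at 121, 58.8, 48.7 and 57.5 in the control livers, in the order 902, 908, 924 and 928, and at 84, 114, 65.7 and 91.3 in the BPA livers, in the order 910, 918, 977 and 984. TTR ran from 30.9 to 39 in the livers over 15 M reads and had its lowest ratio, 6.89, in 918. TF ran from 155 to 212 in every liver other than 902, where it stood at 616.

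**Figure D3:**
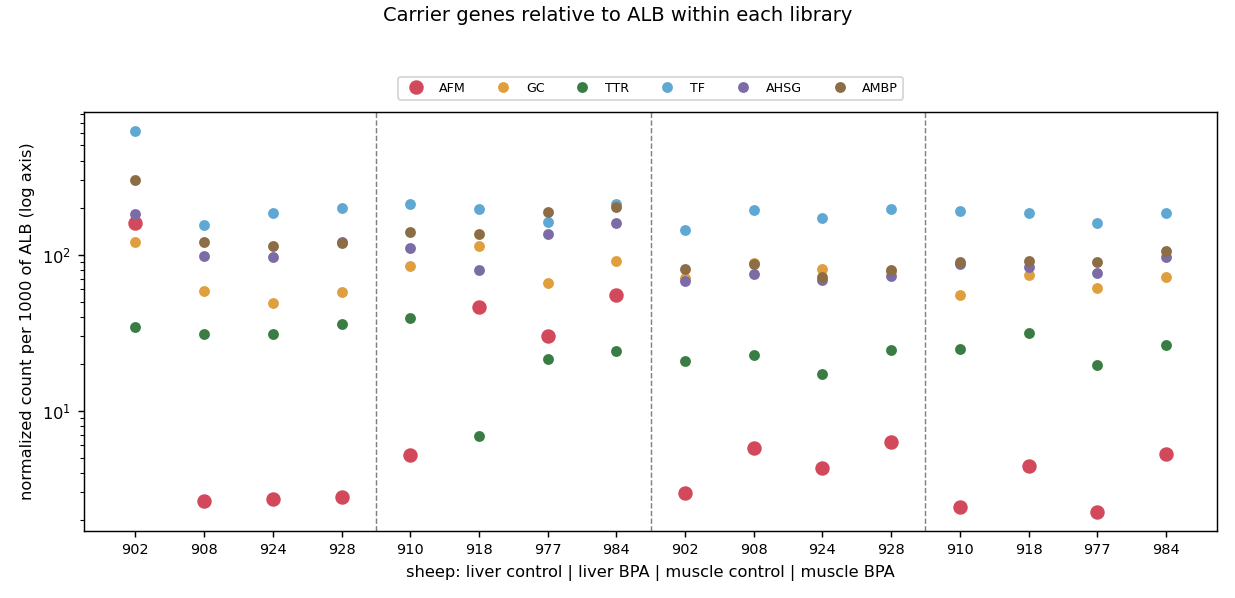
Normalized count of AFM, GC, TTR, TF, AHSG and AMBP per 1000 of ALB (vertical log axis) in each of the 16 libraries, grouped by tissue and treatment with dashed lines between groups. AFM lies at 29.9 to 159 in the livers 902, 918, 977 and 984 and at 2.26 to 6.32 in the remaining libraries.

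Likeness between genes was measured as Pearson's r of log2(value + 1) over the 8 livers, as a description only, since the libraries share depth, cell composition and group. ALB had r = 0.98 with GC, 0.94 with TTR, 0.97 with TF, 0.99 with AHSG, and AMBP was the closest member. Without 902 and 984, the livers farthest from the ALB median, r was 0.92 with GC, 0.93 with TTR, 0.99 with TF, 0.97 with AHSG and 0.99 with AMBP. With AFM it was -0.07, and -0.70 without those livers. The genes most like ALB in liver were APOH (r = 0.999), SERPINC1 (0.996), OTC (0.996), CHPT1 (0.996) and AMACR (0.995). APOH encodes a phospholipid-binding plasma protein, SERPINC1 antithrombin and OTC an enzyme of the urea cycle. APOH measured 2791 to 43497 in control livers and 10535 to 38030 in BPA livers.

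The genes most like AFM in liver were of another kind. They were IL1RAP (r = 0.984), GPHN (0.982), ZNF23 (0.980), GRB14 (0.979) and COG5 (0.977), and without 918 and 984, the livers farthest from the AFM median, r was 0.97, 0.96, 0.93, 0.91 and 0.88. IL1RAP encodes the accessory chain of the interleukin-1 receptor, GPHN the scaffold protein gephyrin, GRB14 an adaptor that binds the insulin receptor, and COG5 a subunit of a Golgi tethering complex. IL1RAP measured 248.7 to 353.7 in control livers and 435.6 to 1114 in BPA livers. GRB14 measured 175.6 to 271.1 and 444 to 2232. Being picked for likeness to AFM, they share its separation of the groups by construction, except that COG5 overlapped slightly (218.6 to 279.4 and 277.4 to 1168). Over the 16 hepatocyte list genes the median r was 0.94 with ALB and -0.12 with AFM.

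In muscle the carrier transcripts were scarce but measurable, and the tested members had lower estimates in BPA sheep. ALB measured 7747 in the control muscle of 902, 4655 in 908, 4662 in 924 and 4401 in 928. In BPA muscle it measured 5050 in 910, 2257 in 918, 3724 in 977 and 3361 in 984. The groups overlapped through the BPA sheep 910 alone. Group means were 5366 ± 1592 and 3598 ± 1151 (SD, n = 4 each), with a log2 difference of -0.59 (SE 0.234, unadjusted p = 0.0274, adjusted p = 0.555, limma over 14706 genes). Sheep 902 had the highest ALB of all muscles and the lowest of all livers.

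GC had the clearest separation among the tested members in muscle. It measured 545.5 in 902, 412.1 in 908, 374.3 in 924 and 347.5 in 928 among controls. Among BPA sheep it measured 277.4 in 910, 167.3 in 918, 228.8 in 977 and 242.4 in 984. Every BPA muscle lay below every control, as did those of 365 of 14706 genes (2.48%). Group means were 419.8 ± 87.83 and 229 ± 45.95 (SD, n = 4 each), with a log2 difference of -0.87 (SE 0.173). The adjusted p was 0.113 with limma and 0.131 with edgeR, which miss the threshold, and 0.00144 with DESeq2, which passes it. Without any single library the estimate stayed between -0.97 and -0.73.

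AFM in muscle rested on very few reads. It was recovered as 19 reads in 902, 32 in 908, 17 in 924 and 34 in 928 among controls, and as 11 reads in 910, 13 in 918, 6 in 977 and 22 in 984 among BPA sheep. In normalized counts these were 23.13, 26.97, 19.95 and 27.8 in controls and 12.26, 9.976, 8.422 and 17.84 in BPA sheep. The groups did not overlap, which is again the pattern that chose the genes. The nearest pair, the BPA sheep 984 (95% Poisson interval 11.18 to 27) and the control 924 (11.62 to 31.94), had overlapping counting intervals. So did most other pairs. The intervals of 984 and 910 overlapped those of every control, and those of 918 and 977 overlapped the controls 902 and 924. Group means were 24.46 ± 3.631 and 12.12 ± 4.121 (SD, n = 4 each). The log2 difference was -0.99, with an SE of 0.286.

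The remaining carriers in muscle overlapped between the groups. TF measured 799.1 to 1106 in controls and 961.6 in 910, 415.2 in 918, 596.5 in 977 and 624.2 in 984, with a log2 difference of -0.55 (SE 0.207, unadjusted p = 0.0217, adjusted p = 0.522, limma). As for ALB, the BPA sheep 910 was the only one above the lowest control. TTR measured 79.79 to 160.7 in controls and 71.37 to 125.9 in BPA sheep (log2 difference -0.33, SE 0.232, adjusted p = 0.781, limma). AHSG measured 322.2 to 524.8 and 187.2 to 441.2 (-0.33, SE 0.237, adjusted p = 0.785, limma). AMBP measured 334.4 to 629.5 and 206.4 to 453.5 (-0.36, SE 0.242, adjusted p = 0.772, limma). For all 6 of ALB, GC, TTR, TF, AHSG and AMBP the control 902 had the highest and the BPA sheep 918 the lowest muscle value.

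Of the 6 members tested in muscle, 0 passed the threshold of limma, beside 19 of 14706 genes (0.129%). All 6 estimates were below 0, with a median of -0.46 beside -0.00 over all genes, and ALB, GC and TF had an unadjusted p under 0.05. DESeq2 called 131 genes in muscle, GC among them, and edgeR called 19.

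**Figure D4:**
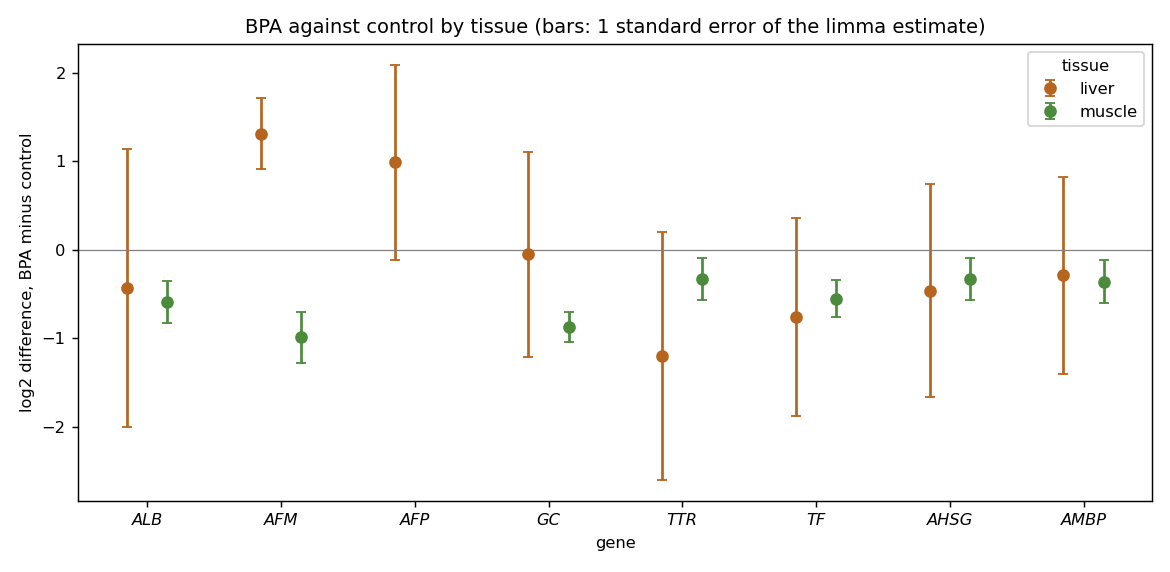
Log2 difference, BPA minus control, of each carrier gene (horizontal axis) in liver and in muscle, as limma estimates on log2(value + 1) with bars of 1 standard error; AFP was below the filter in muscle and has no muscle point. AFM is the point above 0 in liver (1.31) with a muscle point below 0 (-0.99), and liver bars are wider than muscle bars for every gene drawn in both tissues.

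All carriers that passed the filter on low values were far higher in liver than in muscle. In control sheep the log2 difference, liver minus muscle, was 5.56 for ALB (SE 1.04), 6.20 for AFM (SE 0.307), 5.31 for GC (SE 0.873), 6.19 for TTR (SE 1.09), 6.04 for TF (SE 0.8), 6.31 for AHSG (SE 0.901) and 6.45 for AMBP (SE 0.816). AFM is given with no test, since its control values took part in choosing the genes. The other 6 of 6 passed the threshold, with adjusted p from 5.03e-06 (AMBP) to 2.63e-04 (ALB) in limma, beside 8993 of 15995 genes (56.2%). In BPA sheep the difference was 5.72 for ALB, 6.14 for GC, 5.32 for TTR, 5.83 for TF, 6.17 for AHSG and 6.52 for AMBP, and these 6 of 6 passed (adjusted p from 3.84e-06 to 5.01e-04, limma), beside 10450 of 15995 (65.3%). AFM stood 8.50 apart (SE 0.307) in BPA sheep, given with no test. Its groups ordered from BPA liver through control liver and control muscle to BPA muscle, and no neighbouring groups in that order overlapped.

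The BPA effect in liver minus that in muscle was 2.31 for AFM (SE 0.434), with no test. For the tested members it was 0.16 for ALB, 0.83 for GC, -0.87 for TTR, -0.21 for TF, -0.13 for AHSG and 0.07 for AMBP, with an SE of 1.13 (TF) to 1.55 (TTR). None of these 6 passed (smallest adjusted p 0.713, limma), beside 0 of 13677 genes (0%), with 2661 at an unadjusted p under 0.05 and 148 called by DESeq2. The standard errors exceeded the estimates for all 6, so a difference of this size was not detectable with these livers.

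Muscle held the carriers at a small percentage of the liver level. The median of the 8 muscles was 1.21% of the median of the 8 livers for ALB, 0.774% for AFM, 1.07% for GC, 0.835% for TTR, 1.16% for TF, 0.854% for AHSG, 0.687% for AMBP and 0% for AFP. The median over the 8 genes was 0.845%. It was 0.927% over 30 other secreted liver proteins (0.426% for HRG to 7.26% for ITIH4) and 0.77% over the 16 hepatocyte enzymes and receptors (0.489% for PCK1 to 12.2% for SLC10A1). Transcripts of hepatocyte enzymes and receptors, which are not plasma carriers, were thus present in muscle at a percentage like that of the secreted carriers. These percentages depend on the livers used. Against the median of the livers over 15 M reads, the carriers other than AFP spread from 0.431% (AMBP) and 0.439% (TTR) to 0.949% (AFM), with ALB at 0.656%. Ratios to ALB were alike between muscle and the livers over 15 M reads for TF, GC and AFM only. Per 1000 of ALB, TF stood at 143 to 197 in muscle and 155 to 212 in those livers, and GC at 54.9 to 88.5 and 48.7 to 84. AFM stood at 2.26 to 6.32 and 2.65 to 5.24. TTR (17.1 to 31.6 and 30.9 to 39), AHSG (67.7 to 97.2 and 97.1 to 120) and AMBP (71.7 to 105 and 113 to 139) stood lower in muscle. In the livers under 15 M reads the ratio was 161 to 616 for TF, 65.7 to 121 for GC and 29.9 to 159 for AFM.

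**Figure D5:**
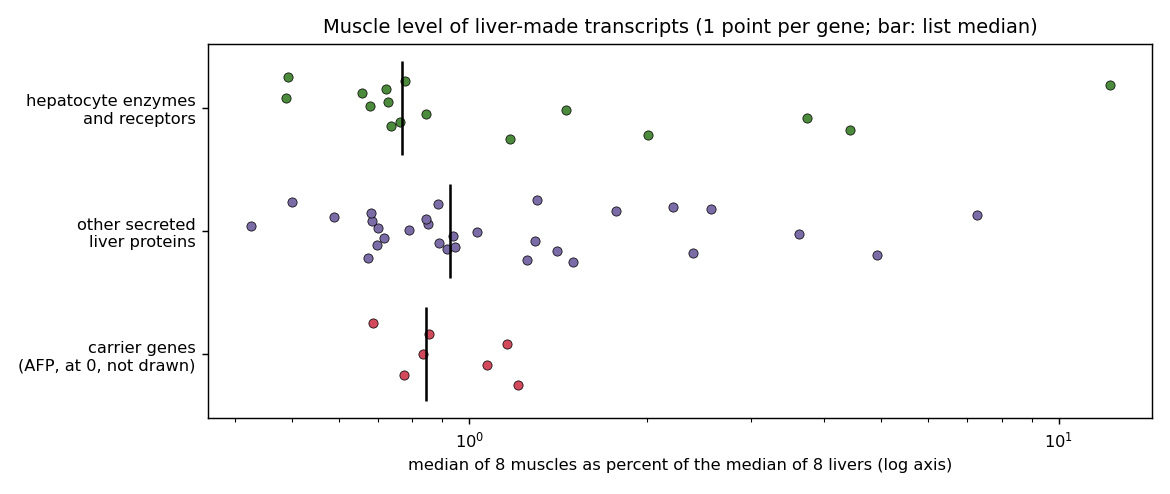
Median of the 8 muscles as a percentage of the median of the 8 livers (horizontal log axis), with 1 point per gene, for the carriers, other secreted liver proteins and hepatocyte enzymes and receptors; bars are list medians (0.845, 0.927 and 0.77%). The carriers other than AFP, which is at 0 and not drawn, lie between 0.687 and 1.21%, inside the range of both other lists.

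The hepatocyte list moved with the carriers across muscles. Its sum was 3584 in the control 902, 2645 in 908, 2315 in 924 and 2493 in 928, and 3188 in the BPA sheep 910, 1820 in 918, 2215 in 977 and 2343 in 984. Sheep 902 was highest and 918 lowest, as for ALB, and no gene of the list was at 0 in any muscle. Over its 16 genes, 13 had a lower estimate in BPA muscle and 0 passed the threshold, with a median of -0.35. With the log2 of this sum added to the fit, an alternative chosen after seeing the data, the muscle estimates moved to -0.30 for ALB, -0.07 for TTR, -0.30 for TF, -0.03 for AHSG and -0.06 for AMBP. Those of GC (-0.68, adjusted p = 0.0529, limma) and AFM (-0.94, no test) moved less. Where the carrier transcripts in muscle come from was not tested.

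In muscle the likeness of AFM to other genes is limited by its 6 to 34 reads per library, since counting error lowers r. ALB had r = 0.91 with GC, 0.85 with TTR, 0.95 with TF, 0.94 with AHSG, 0.95 with AMBP and 0.55 with AFM over the 8 muscles, again as a description. Without 902 and 918 these were 0.67, 0.62, 0.93, 0.65, 0.60 and 0.27, so most of them rested in part on those sheep. The genes most like ALB in muscle were themselves liver genes: SERPINC1 (r = 0.990), ACSM3 (0.982), CREB3L3 (0.978), APOB (0.977) and CPS1 (0.975). Those most like AFM were KCNK6 (0.955), PSD3 (0.926), LBP (0.913), YPEL1 (0.912) and MAPK12 (0.909). LBP, the lipopolysaccharide binding protein of plasma, measured 92.53 to 174.2 in control muscle and 29.48 to 61.61 in BPA muscle. Being picked for likeness to AFM, these 5 genes share its separation of the groups by construction, except that KCNK6 overlapped slightly (15.25 to 18.26 and 9.825 to 15.4), and nothing is read from it.

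Other secreted liver proteins were looked at as a list of 32 genes, of which 30 were in the table. In liver 8 estimates were above 0 and 22 below, with 0 passing the threshold and a median of -0.35. In muscle 28 of the 29 tested were below 0, with a median of -0.48, and 4 fell past the threshold, beside 7423 of 14706 genes below 0 and 19 called (0.129%). The list was chosen with earlier results of these data known, so nothing is read from how many of its genes were lower or called. With all 16 libraries in 1 fit limma called 0 genes in muscle, so these 4 calls were lost there. These were the fibrinogen chains FGA (-1.20, SE 0.106, adjusted p = 6.18e-04), FGG (-1.31, SE 0.12, adjusted p = 7.41e-04) and FGB (-1.35, SE 0.13, adjusted p = 8.96e-04), and CP, the copper protein ceruloplasmin (-1.19, SE 0.182, adjusted p = 0.0331), all with limma. FGA measured 1577 in the control muscle 902, 1598 in 908, 1579 in 924 and 1777 in 928, and 872.4 in the BPA muscle 910, 648.5 in 918, 640 in 977 and 693.1 in 984. In 910 FGA thus lay below every control, whereas ALB and TF of 910 lay within the control range. HPX, the haem carrier hemopexin, measured 248.8 to 288.6 and 126.6 to 203.9 in muscle (-0.78, SE 0.145, adjusted p = 0.0937, limma). RBP4 differed little in muscle (-0.05, SE 0.223), with 300.4 to 561.3 in controls and 308.8 to 602.8 in BPA sheep.

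Transcription factors known to drive or restrain the albumin family were a list of 15 genes. None passed the threshold in liver (15 tested, median 0.13) or in muscle (10 tested, median -0.10). HNF4A (0.13) and CEBPA (-0.23), activators of hepatocyte genes, had liver differences within their standard errors. So did ZHX2 (0.11) and ZBTB20 (-0.05), repressors of AFP after birth.

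Receptors and other proteins that take up, salvage or handle plasma carriers were a list of 12 genes. Of these, 0 passed the threshold in liver (12 tested, median -0.85) and in muscle (10 tested, median 0.11). In liver 3 of the 12 had an unadjusted p under 0.05 (limma), beside 2838 of 15689 genes. FCGRT, the receptor that returns albumin to blood, measured 2126 in the control liver 902 and 6229 to 6750 in the other controls. In BPA livers it measured 5681 in 910, 1672 in 918, 2819 in 977 and 1906 in 984 (-0.88, SE 0.526, adjusted p = 0.365, limma). As for ALB, the 4 livers over 15 M reads lay above the 4 under it. TFRC, the transferrin receptor, measured 1199 to 3529 in control and 684 to 1788 in BPA livers (-0.79, SE 0.45, adjusted p = 0.345, limma), with the highest value in 902. LRP2 (megalin) measured 1195 in the liver of 902 and 1.376 to 43.72 in the other 7 livers, on 2 to 35 reads each.

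In the gene order that RefSeq gives for assembly ARS-UI_Ramb_v3.0, ALB, AFP and AFM lie next to each other in that order, with AFP the only coding gene between ALB and AFM. The neighbouring coding genes were read as a comparison, without a test. ANKRD17, next to ALB, measured 1840 ± 188.8 in control and 2617 ± 677.6 in BPA liver, and 1866 ± 90.09 and 1812 ± 86.23 in muscle (SD, n = 4 each), with groups that overlapped in both tissues. LOC101102731, next to AFM, measured 35.8 to 140.8 in control and 31.19 to 227.7 in BPA liver. In muscle it measured 1.635 to 3.52 in controls and was at 0 in all 4 BPA sheep, levels at or near that of 3 reads. RASSF6, the next gene on, measured 70.94 ± 14.64 and 78.76 ± 43.84 in liver and was at 0 in all 4 BPA muscles, with 0 to 4.906 in the controls. In liver none of these neighbours separated the groups as AFM did.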

How the data were processed

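The authors deposited 1 table of normalized read counts (a signal per gene: reads divided by 1 size factor per library) for 16 libraries, 8 liver and 8 muscle, with 0 columns left unused. Ribosome depletion preceded a low-input library kit, per the labels' protocols. The submitters' processing notes name Trimmomatic, FastQC and DESeq2 1.24.0. The aligner, read counter, annotation, genome build and strandedness were not given in the sources used here. Reads shared with near-identical or overlapping genes are therefore uncertain. RefSeq's gene table, consulted for names and neighbours only, held 22708 of the names, and 3425 rows were at 0 throughout.

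Each deposited column consisted of whole multiples of 1 step. Dividing by it recovered whole reads for at least 99.996% of values in every library (tolerance 0.1 read). These counts gave the depth, the Poisson and Wilson intervals (95%, counting error only) and the added tests, by the quasi-likelihood method of edgeR 4.0.16 and by DESeq2 1.42.0.

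The main test was limma 3.58.1 (R 4.3.3) on log2(value + 1), with eBayes and an intensity trend, two-sided, with Benjamini-Hochberg adjustment over all genes tested. Each tissue was fitted alone, keeping genes whose mean over its 8 libraries reached 10. Fits of 4 groups over 16 libraries compared liver with muscle (mean over all libraries of 10 or more) and the BPA effects of the tissues with each other (mean of 10 or more in both). A gene passed at an adjusted p of 0.05. Differences of low genes are understated on this scale. The fits were tested on simulated data. Unless another tool is named, p-values come from limma.

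The members and lists were chosen with earlier results of these data known. AFM was given no test in any contrast that its selection used. The text names the 8 members, some list genes by role, up to 6 genes per list past the threshold, the 5 genes most like ALB and AFM in each tissue, and neighbouring genes, and 1 gene that this rule selects is not reported here. A tissue's samples are separate animals per the labels. Same-numbered liver and muscle come from the same sheep. Their deviations from the group means correlated by -0.10 to 0.12 across 13677 genes, and by up to 0.09 to 0.17 with another sheep's muscle, so the pairing rests on the labels.

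Alternatives were another pseudocount (8), no filter, other scalings and fits, the count tests, the sheep as a replicate block, leaving out each library or animal, and 2 covariates chosen after seeing the data.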

Additional observations from a re-analysis of the deposited data

Results flagged for a closer look

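Single libraries lay far from the rest of their group of 4, by Dixon's criterion for the gap to the next library over the range, which chance exceeds in about 1 in 20 groups. In control liver, sheep 902 was the low library for ALB (10447), GC (1263), TTR (358) and AMBP (3143). In BPA liver, sheep 910 was the high library for TTR (21391), AHSG (60337) and AMBP (76080). In control muscle, sheep 902 was the high library for ALB (7747) and AHSG (524.8), and the only muscle with an AFP read (1.218 normalized counts).

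Sheep 902 therefore stood out for ALB in both tissues and in opposite directions, lowest in liver and highest in muscle. AHSG had the same order, but its low value in the liver of 902 (1896) did not meet the criterion. In its liver the fibroblast and stellate list summed to 121341 and the bile duct list (9 genes) to 13722, against at most 9840 and 2688 in the other control livers. In its muscle the hepatocyte list summed to 3584, the highest of 8 muscles. The part of these cell types was not tested.

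The BPA effect on AFM in liver exceeded that in muscle by 2.31 on the log2 scale, with all 4 BPA livers above and all 4 BPA muscles below the controls. The difference was not tested, because the genes were chosen on it.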

How the results depend on the processing

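The number of genes called depended on the fit, the test and sheep 910. In liver limma called 0, but 2299 with all 16 libraries in 1 fit, 196 with DESeq2, and 0 to 2595 with a library left out (2595 without 910). In muscle it called 19, but 0 with all 16 libraries in 1 fit, 131 with DESeq2, and 11 (without 984) to 31 (without 910) with a library left out. For the difference between BPA effects it called 0, but 148 with DESeq2 and 0 to 3020 with an animal left out (3020 without 910, 4 without 902, 1 without 908). With the sheep as a replicate block, liver against muscle gave 8555 genes in control and 10068 in BPA sheep, the difference gave 0, and no member's call changed.

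Over 518 values of members under alternatives, 474 kept direction and call, 40 changed sign (none of them called), 3 values of AFM moved and GC in muscle passed with DESeq2. With depth class as a liver covariate the estimates were 1.62 for ALB, -0.10 for AFP, 1.70 for GC, 1.17 for TTR, 0.88 for TF, 1.36 for AHSG and 1.34 for AMBP. With a library left out, liver estimates ran from -1.95 to 0.10 for ALB, -1.28 to 0.38 for GC, -1.78 to 0.04 for AHSG and -1.47 to 0.11 for AMBP. With an animal left out, the difference between BPA effects ran from -1.55 to 0.75 for ALB, -0.54 to 1.34 for GC, -1.38 to 0.25 for TF, -1.62 to 0.44 for AHSG and -1.30 to 0.58 for AMBP. In edgeR and DESeq2 that difference was -0.53 and -0.56 for ALB and -0.40 and -0.43 for AMBP. The cause of these changes was not tested. Under the alternatives AFM ran from 0.98 to 1.54 in liver, -1.19 to -0.70 in muscle and 1.90 to 2.55 for the difference. The genes were chosen on its separated groups, so leaving out a library or animal could not change its sign. Nothing is read from its sign staying the same. Depth limits AFM in muscle (6 to 34 reads) and AFP in both tissues.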
